A study of Mus musculus with 149 samples.

Results

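The 10 genes followed here act in protein folding and stress signalling in the endoplasmic reticulum, in single cells of the mouse liver: the chaperones Hspa5, Hsp90b1 and Calr, the disulphide isomerases Pdia3 and Pdia4, the co-chaperone Dnajb9, the degradation component Herpud1 and the transcription factors Xbp1, Atf4 and Ddit3. They were taken by symbol from the deposited table, where all 10 had a row among 20308 mouse genes. The question was how their levels differed between the microfluidic chips that captured the cells, along the order in which the table lists the cells, and with Alb, the albumin gene. The 149 cells all came from the liver of 1 male C57BL/6 mouse of 8 weeks, perfused in a 2-step procedure that ends with low-speed spins to enrich hepatocytes. No cell was treated and no genotype was compared. Cells were caught on a Fluidigm C1 chip with small traps (5 to 10 µm, 39 cells), with medium traps (10 to 17 µm, 30 cells) or with large traps (17 to 25 µm, 80 cells), and ERCC spike-in RNA was added with the lysis mix. Each chip is 1 sample from 1 mouse, so its cells cannot stand as replicates. No p-values are printed, and spreads below are between cells or between chips.

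The endoplasmic reticulum is the site where a hepatocyte folds the plasma proteins it secretes, albumin above all. When unfolded chains build up, membrane sensors raise chaperones, isomerases and degradation factors through Xbp1, Atf6 and Atf4, a programme known as the unfolded protein response. Hspa5 binds unfolded chains and keeps the sensors inactive, and Ddit3 is the factor of prolonged stress that is linked to cell death. Across a liver lobule, cells near the portal vein express Cyp2f2 and Hal and cells near the central vein express Cyp2e1 and Glul.

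The promoters of 4 of the genes are shown because they carry the motifs through which stress factors are known to act. They are the 220 bases before the transcription start in RefSeq (GRCm38.p6), read 5′ to 3′ on the strand of the gene, and capitals mark motif letters found on either strand. In Hspa5, Hsp90b1 and Calr the motif is the endoplasmic reticulum stress element, CCAAT and CCACG with 9 bases of any kind between them. In Herpud1 it is the second form of that element, ATTGG and CCACG with 1 base of any kind between them, together with TTGCATCA, a composite element of the type that Ddit3 and Atf4 bind with their partners. Where a motif lies on the other strand, its letters appear as their reverse complement.
Hspa5 (chr2:34771870-34772089, plus strand): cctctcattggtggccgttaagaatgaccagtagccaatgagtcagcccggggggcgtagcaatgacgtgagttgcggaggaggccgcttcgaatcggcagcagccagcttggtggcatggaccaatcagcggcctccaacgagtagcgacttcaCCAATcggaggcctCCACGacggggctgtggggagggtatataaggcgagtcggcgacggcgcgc
Hsp90b1 (chr10:86705445-86705664, minus strand): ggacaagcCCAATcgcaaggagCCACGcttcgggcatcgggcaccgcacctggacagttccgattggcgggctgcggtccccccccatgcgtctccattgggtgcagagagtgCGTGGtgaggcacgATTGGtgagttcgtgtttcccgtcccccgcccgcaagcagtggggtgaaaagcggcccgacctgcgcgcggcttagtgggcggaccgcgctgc
Calr (chr8:84846932-84847151, minus strand): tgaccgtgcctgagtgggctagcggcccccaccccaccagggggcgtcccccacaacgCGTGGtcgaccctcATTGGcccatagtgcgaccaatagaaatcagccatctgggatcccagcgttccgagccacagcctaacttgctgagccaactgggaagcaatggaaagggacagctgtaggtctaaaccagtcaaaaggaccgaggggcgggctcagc
Herpud1 (chr8:94386209-94386428, plus strand): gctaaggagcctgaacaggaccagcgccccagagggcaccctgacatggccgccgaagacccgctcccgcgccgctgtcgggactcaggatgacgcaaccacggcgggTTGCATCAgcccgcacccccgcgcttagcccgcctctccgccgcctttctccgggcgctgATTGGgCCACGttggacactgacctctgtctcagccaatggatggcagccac
All 10 genes had a promoter in the RefSeq table, which was searched over 300 bases, 250 before the start and 50 from it. The first element was found in 3 of the 10 (Hspa5, Hsp90b1 and Calr) and in 37 of 27025 genes (0.137%). In Hspa5 it lay 47 to 65 bases before the start and in Calr 144 to 162 bases before it. Hsp90b1 held 2 copies, at 89 to 107 and at 194 to 212 bases. The second form was found in Herpud1, 42 to 52 bases before the start, and in 12 of 27025 genes (0.0444%). TTGCATCA was also found in Herpud1 among the 10 and in 1.03% of genes. TGACGTGG, the core of the unfolded protein response element, was in none of the 10 and in 0.714% of genes. The plain letters CCAAT, which are part of the first element and, on the other strand, of the second, were in 9 of the 10 and in 41.1% of genes. The gene starts given below are from GENCODE, and for Hspa5, Hsp90b1 and Calr they lie upstream of the RefSeq start, within the bases shown. The motifs are matches of letters, and no binding was measured.

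The chips differed in what their cells yielded, which bears on every value below. The deposited values are normalised, so the sequencing depth is unknown. Their sums differed between cells. The median sum of a cell's values, spike-ins included, was 5539880, 5678140 and 1817210 in the small, medium and large chip. For mouse genes alone it was 910315, 966651 and 1755300. Values, highest values and chip ratios given as deposited are not adjusted for these sums. The median share of a cell's signal on the spike-ins was 82.8%, 82.7% and 3.66% in the small, medium and large chip, and the median number of mouse genes above 0 was 3087, 2306.5 and 7389.5. The spike-in share was under 50% in 12 of 39, 7 of 30 and 64 of 80 cells, called low-spike cells here, and results are given with all cells and with these. Levels in ppm are a cell's values rescaled so that its mouse genes sum to 1000000. The hepatocyte markers tested (Alb, Apoa1, Ttr, Serpina1a, Cyp2e1 and Cyp2f2) were present together in at least 3 of 6 in all 149 cells, and Alb was above 0 in every cell. At least 3 of 9 Kupffer cell markers were above 0 in 12, 8 and 0 cells of the small, medium and large chip, and at least 3 of 10 sinusoidal endothelial markers in 4, 1 and 15 cells. At least 3 stellate markers were above 0 in 0, 2 and 1 cells, and at least 3 of 6 T and NK cell markers in none. Counting the first 3 types together, 15 of 39, 11 of 30 and 15 of 80 cells held at least 3 markers of one of them.

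The 3 chaperones were the most widely detected of the 10 genes. Hspa5 (chr2:34771970-34777547, plus strand) was above 0 in 38 of 39 small-chip cells and in all 30 medium-chip and 80 large-chip cells. Its lowest, median and highest deposited values were 0, 380 and 4588 in the small chip, 9.14, 739 and 6623 in the medium chip, and 9.35, 1209 and 10043 in the large chip. The 3 ranges overlapped almost entirely, while the median was highest in the large chip. Hsp90b1 (chr10:86690209-86705509, minus strand), the chaperone of the Hsp90 family in the lumen, was the only member above 0 in all 149 cells. It had 16.9, 445 and 7081 in the small chip, 2.05, 651 and 5966 in the medium chip, and 27.6, 1973 and 12638 in the large chip, as lowest, median and highest value. Calr (chr8:84841850-84846934, minus strand), which encodes the calcium-binding lectin calreticulin, was above 0 in 38 of 39, 29 of 30 and 80 of 80 cells. Its lowest, median and highest values were 0, 428 and 2382 in the small chip, 0, 485 and 2803 in the medium chip, and 5.59, 616 and 6725 in the large chip. In ppm its medians were 381, 403 and 357, so the chips were closest for this gene.

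The isomerases were patchier on the smaller chips. Pdia3 (chr2:121413775-121438687, plus strand), which works with calreticulin on glycoproteins, was above 0 in 33 of 39, 23 of 30 and 79 of 80 cells. Its lowest, median and highest values were 0, 35.7 and 2911 in the small chip, 0, 24.1 and 2084 in the medium chip, and 0, 549 and 3365 in the large chip. The highest cells of the chips were alike and the medians were not. Pdia4 (chr6:47796141-47813430, minus strand), a second lumenal isomerase, had 0, 14.9 and 1900 in the small chip, 0, 60.7 and 1901 in the medium chip, and 0, 125 and 740 in the large chip. It was above 0 in 29 of 39, 27 of 30 and 75 of 80 cells, and its highest values were in the 2 smaller chips.

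As deposited, Herpud1 and Dnajb9, like all the other members, had higher medians in the large chip than in the small and medium chips. Herpud1 (chr8:94386438-94395377, plus strand) encodes a membrane protein of the complex that sends misfolded proteins out for degradation. Its lowest, median and highest values were 0, 20.1 and 1218 in the small chip, 0, 60.97 and 2196 in the medium chip, and 14.9, 775 and 2311 in the large chip. It was above 0 in 33 of 39, 27 of 30 and 80 of 80 cells, so that every large-chip cell had some and most small-chip cells had little. Dnajb9 (chr12:44205559-44210326, minus strand), which encodes a J-domain partner of Hspa5, had 0, 0 and 268 in the small chip, 0, 0 and 3155 in the medium chip, and 0, 97.6 and 686 in the large chip. It was above 0 in 12 of 39, 12 of 30 and 78 of 80 cells.

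The transcription factors had medians between 0 and 73.8 on the 3 chips, with single cells far above. Xbp1 (chr11:5520659-5525893, plus strand), whose RNA is spliced by the sensor Ern1 into the form that encodes the active factor, was above 0 in 24 of 39, 20 of 30 and 75 of 80 cells, with medians of 4.87, 7.80 and 68.8 and highest values of 261, 856 and 2660. The table has 1 value per gene, so the spliced form is not separated. Atf4 (chr15:80255184-80257541, plus strand), which is controlled largely at translation, was above 0 in 28 of 39, 23 of 30 and 75 of 80 cells, with medians of 11.9, 15.7 and 73.8. Its highest values were 2065, 3655 and 1446, so the largest single values were not in the large chip. Ddit3 (chr10:127290774-127296288, plus strand) was above 0 in 8 of 39 small-chip cells (20.5%, exact Clopper-Pearson 95% interval 9.30 to 36.5%), in 7 of 30 medium-chip cells (23.3%, 9.93 to 42.3%) and in 61 of 80 large-chip cells (76.2%, 65.4 to 85.1%). These intervals cover counting error over cells only. Its median was 0, 0 and 12.2, and 2 overlapping genes carry this symbol in the GENCODE annotation, so its counts may be shared.

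Detection of the members has to be read against all genes. The median tested gene, tested meaning above 0 in at least 20% of cells (8813 genes), was above 0 in 30.8%, 30.0% and 72.5% of small-, medium- and large-chip cells. The median member was above 0 in 79.5%, 83.3% and 98.1%. In low-spike cells Ddit3 was above 0 in 4 of 12, 5 of 7 and 57 of 64, and Dnajb9 in 8 of 12, 4 of 7 and 64 of 64. The share for all tested genes was not computed in low-spike cells, so these counts cannot be read against it.

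**Figure D1:**
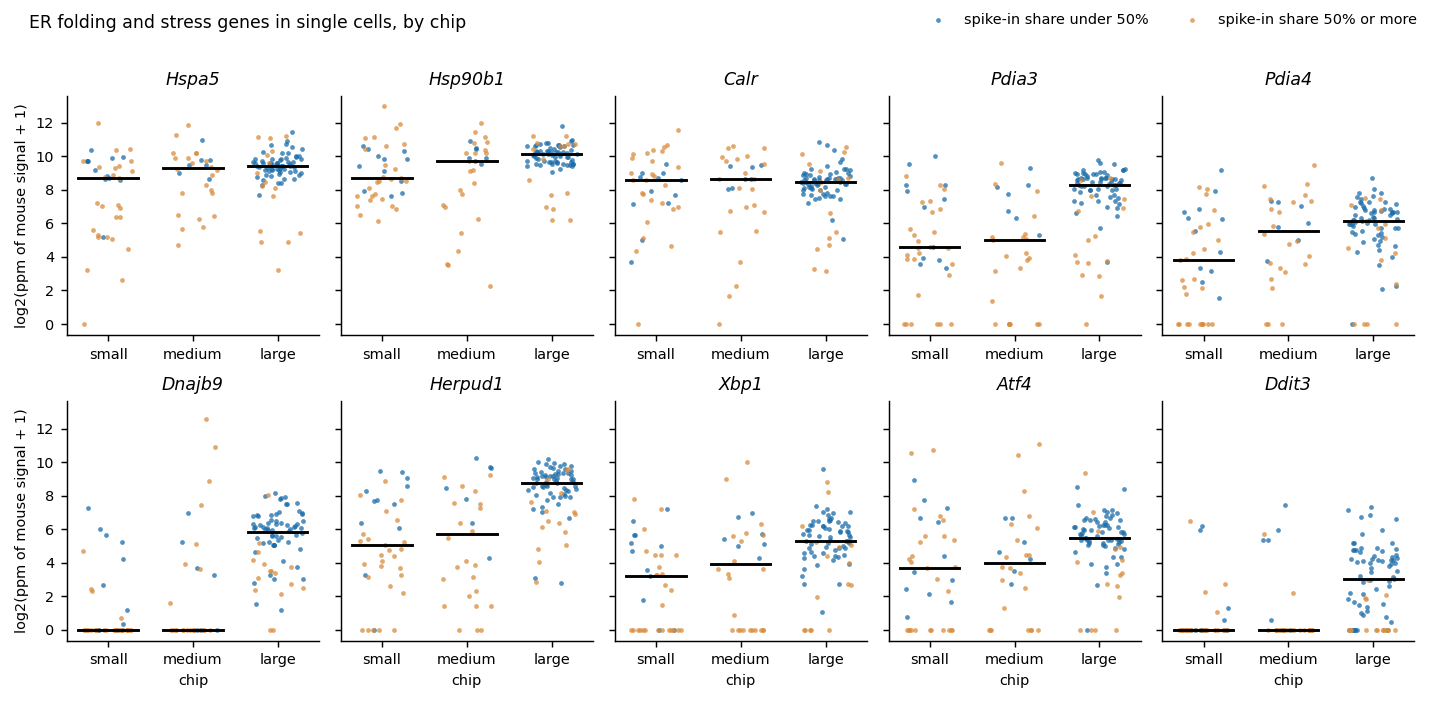
Levels of the 10 genes in single cells. Each point is 1 cell (39 small-chip, 30 medium-chip and 80 large-chip cells), the vertical axis is log2 of the value in ppm of mouse signal plus 1, colour gives the spike-in share and the black line is the chip's median. Calr has similar medians on the small, medium and large chip (381, 403 and 357 ppm) and Hsp90b1 does not (422, 838 and 1130 ppm), whereas Dnajb9 and Ddit3 have a median of 0 on the small and medium chips.

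Per length, Hsp90b1 was the most abundant of the 10 genes in large-chip low-spike cells. The median level in ppm and per kilobase of the longest annotated transcript was 400.1 for Hsp90b1, 249 for Herpud1, 190 for Hspa5, 169 for Calr and 125 for Pdia3. Pdia4 (30.8), Atf4 (30.5), Dnajb9 (27.2), Xbp1 (22.4) and Ddit3 (16.2) made up a second, lower set on this per-length level scale. On the same scale Alb had 9918. Before division by length, the lower and upper quartiles of the 64 cells were 42.7 and 116 ppm for Pdia4, 37.0 and 107 for Dnajb9, 35.4 and 85.9 for Atf4 and 25.1 and 75.3 for Xbp1, which overlap widely. Ddit3, at 2.51 and 25.1 ppm, lay below the lower quartiles of Pdia4, Dnajb9 and Atf4. Herpud1 thus stood, per length, between Hsp90b1 and the other 2 chaperones.

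The summed level of the 10 genes had a median of 2498, 2596 and 3424 ppm in the small, medium and large chip, and of 2641, 3242 and 3514 ppm in the low-spike cells. The median ratio of Alb to the summed members was 10.9, 12.1 and 5.34, and in low-spike cells 10.8, 6.60 and 5.26. The ratio ranged from 0.20 to 123 among small-chip, 0.94 to 35.6 among medium-chip and 0.74 to 108 among large-chip cells. In low-spike cells it ranged from 0.20 to 46.4, from 3.63 to 30.9 and from 0.74 to 14.8, so the chips overlapped in both.

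Between chips, 5 of 10 members had a mean at least 2-fold higher in the large than in the small chip, where 41.9% of all tested genes did, and 0 were 2-fold lower, beside 12.8% of them. Dnajb9 had a mean of 131 in the large chip against 18.5 in the small chip, Herpud1 771 against 238, and the other 3 were Pdia3, Xbp1 and Ddit3, with log2 ratios of 1.24, 1.89 and 1.94. The log2 ratio of large over small was 0.82 for Hspa5, 0.61 for Hsp90b1 and 0.63 for Calr, near the median tested gene (0.72). Against the medium chip, Pdia3 (1.43) and Herpud1 (1.17) were past 2-fold higher in the large chip, which is 2 of 10 members and 37.5% of tested genes, and 0 members were 2-fold lower, beside 12.7%. With all cells rescaled, Pdia3 (1.42) and Herpud1 (1.09) were still past 2-fold higher than in the medium chip, beside 29.6% of tested genes. Dnajb9 (-2.05) and Atf4 (-1.18) were then past 2-fold lower, beside 18%. In low-spike cells 2 members, Dnajb9 and Ddit3, were past 2-fold in large over small (log2 ratio 1.38 and 1.10), beside 26.7% of tested genes, and Hspa5 had a log2 ratio of -0.08. In large over medium 1 was (Dnajb9, 1.63), beside 24.8%. Lower by 2-fold in these cells were 0 members in large over small, beside 25% of tested genes, and 1 in large over medium, Ddit3 (-1.10), beside 17.3%. The chaperones were also below 0 there in large over medium, with log2 ratios of -0.51 for Hspa5, -0.35 for Hsp90b1 and -0.57 for Calr, over 64 large-chip and 7 medium-chip cells. After rescaling those cells 1 member was past 2-fold higher in each ratio, beside 26.4% and 22.6%. The chaperones were then nearer to level in large over medium, with -0.15 for Hspa5, 0.006 for Hsp90b1 and -0.20 for Calr. By medians over all cells 9 and 8 members were past 2-fold, beside 65.8% and 66.4% of tested genes, which the many values of 0 on the smaller chips enter. With the 15, 11 and 15 cells left out that held markers of other cell types, 6 members were past 2-fold in large over small and 3 in large over medium, beside 50.5% and 48.9% of tested genes.

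Dnajb9 against the medium chip turned on 2 cells. Its mean was 131 over large-chip cells against 178 over medium-chip cells, although only 12 of 30 medium-chip cells had any. Medium-chip cell 9 held 3155, with 91.0% of its signal on spike-ins and 1403 genes above 0, and medium-chip cell 4 held 1159. In low-spike cells, which include neither, the mean was 151 over large-chip cells against 48.3 over medium-chip cells.

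Across cells, the chaperones were higher where Alb was higher. Spearman's rho of Hspa5 with Alb was 0.55, 0.59 and 0.52 over the small-, medium- and large-chip cells (mean 0.55 ± 0.03, SD over 3 chips). For Hsp90b1 it was 0.56, 0.56 and 0.61 (0.58 ± 0.03), and for Calr 0.44, 0.66 and 0.52 (0.54 ± 0.11). Herpud1 had 0.69, 0.55 and 0.42. All of these points share the spike-in share, the number of genes detected and the normalisation of their cell, and rho is given as a description.

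A gene was called when rho had 1 sign on all 3 chips and a mean of at least 0.2 in size, and by this rule 9 of 10 members were called positive with Alb, as were 48% of 8771 tested genes. None was called negative, beside 0.103% of tested genes. Dnajb9 was the exception, with 0.49, -0.23 and 0.20. Alb itself moved with detection on the smaller chips: rho between Alb and the number of genes above 0 was 0.54 and 0.67 on the small and medium chip and -0.01 on the large chip. Rescaling every cell to 1 sum of mouse genes left 4 members called, Hspa5, Hsp90b1, Calr and Herpud1, against 3.79% of tested genes. Holding the number of genes above 0 constant left 5, these and Pdia4, against 8.55%. Leaving out cells with markers of other types left 8, against 56.1%. Leaving out the small, medium or large chip gave 8, 10 and 8, against 50.2%, 40% and 59%. In low-spike cells 3 were called positive (Calr, Pdia4 and Xbp1), against 5.48%, and Pdia3 negative, against 18%. Rescaling those cells as well left Calr and Xbp1 positive, against 3.74%, and Pdia3 negative, against 14.4%.

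The large chip had the most low-spike cells, and over all its cells deposited Alb did not move with detection (rho -0.01). That rho was not computed for its low-spike cells. Split into 5 bins along the column order, these had Alb medians of 21177, 24322.5, 23321, 10569 and 5826 ppm. Their median numbers of genes above 0 were 7448, 7318, 7304, 7790 and 7832, so Alb was lowest where more genes were detected. Among its 64 low-spike cells, rescaled, rho with Alb was 0.54 for Hspa5, 0.51 for Calr, 0.46 for Hsp90b1 and 0.38 for Herpud1, while the median of all tested genes was 0.04. Of all tested genes 1.71%, 2.08%, 2.98% and 5.24% had a rho at least as high as these 4 genes, in that order. Atf4 followed with 0.32, and Pdia4 and Ddit3 had 0.22 each. Xbp1 (0.07), Dnajb9 (-0.03) and Pdia3 (-0.06) showed next to no relation to Alb in these cells. Calr and Pdia3, the isomerase that partners calreticulin, had 0.51 and -0.06 over the same cells, and the difference was not tested. On the other chips only 12 and 7 cells had a low spike-in share, and there Hspa5 had -0.19 and -0.07 and Pdia3 -0.37 and -0.75, so the positive relation of Hspa5 in low-spike cells is that of the large chip.

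**Figure D2:**
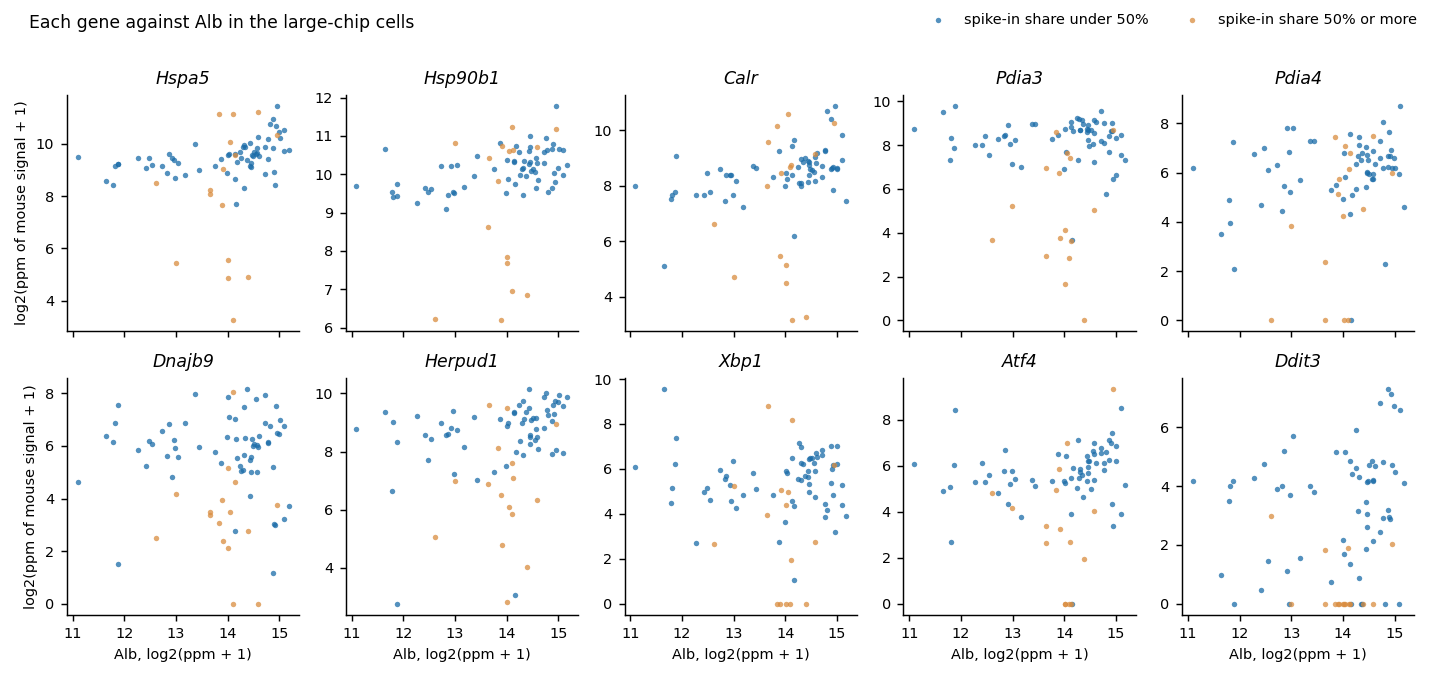
Each gene against Alb in the 80 large-chip cells, both as log2 of the value in ppm of mouse signal plus 1, with colour giving the spike-in share and the vertical scale set for each gene. Among the 64 low-spike cells Hspa5, Hsp90b1 and Calr are higher at high Alb (rho 0.54, 0.46 and 0.51), and Pdia3 shows no such slope (-0.06).

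**Figure D3:**
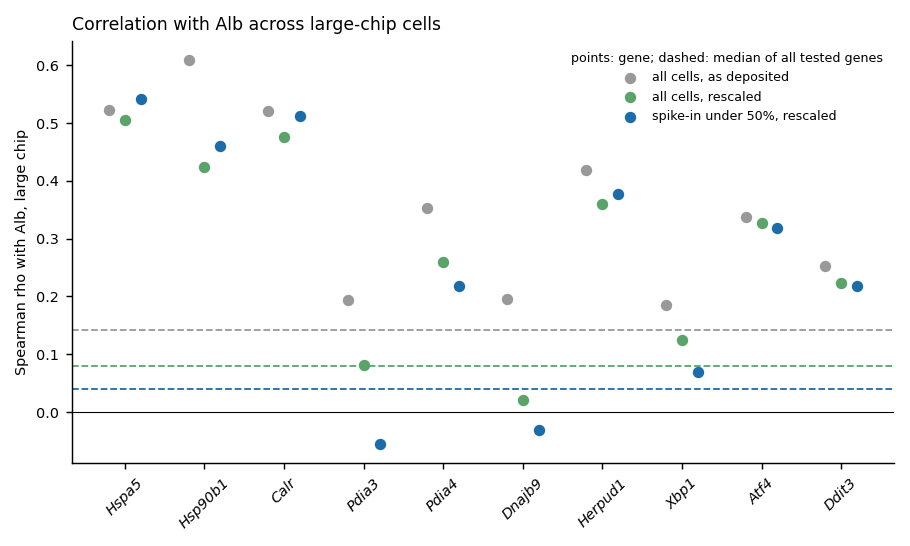
Spearman's rho with Alb over large-chip cells for each of the 10 genes (points), as deposited, after rescaling each cell, and in low-spike cells after rescaling. Dashed lines are the median of all tested genes under the same treatment of the values (0.14, 0.08 and 0.04), and Hspa5, Hsp90b1, Calr and Herpud1 lie well above them in each.

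The table lists its cells in an order that follows the lobule markers. In the large chip rho with the position in that order was 0.86 for Cyp2e1 and 0.53 for Glul, and -0.81 for Cyp2f2 and -0.85 for Hal. The labels do not say how the order was made. The name of the deposited table holds the word Wavecrest, which points to an order computed from expression. An order made in that way is not independent of gene levels, so all values along it are given as a description only. Alb was itself higher at the start of the order, with rho of -0.45, -0.54 and -0.61 in the small, medium and large chip. The order also moved with what the cells yielded, in opposite directions on the smaller chips and the large chip. Its rho with the spike-in share was 0.27, 0.37 and -0.37 in the small, medium and large chip. With the number of genes above 0 it was -0.20, -0.41 and 0.22.

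Along it, 5 members were called higher towards the start, the Cyp2f2 end in the large chip, by the rule over 3 chips, and none towards the end. They were Herpud1 (rho with the order -0.38, -0.33 and -0.38 in the small, medium and large chip), Calr (-0.35, -0.25 and -0.45), Hsp90b1 (-0.21, -0.33 and -0.41), Pdia3 (-0.26, -0.35 and -0.24) and Hspa5 (-0.30, -0.24 and -0.27). By the same rule 15.4% of tested genes were called towards the start and 0.695% towards the end. Ddit3 (mean -0.06), Atf4 (-0.14), Xbp1 (-0.15) and Pdia4 (-0.19) did not reach the mean of 0.2 in size, and Dnajb9 changed sign between chips (-0.19, 0.29 and 0.02). With the number of genes above 0 held constant, 1 member was called, Pdia3, against 6.51% of tested genes. In low-spike cells 3 were called as deposited, against 12.9%, and 5 after rescaling, against 16%. Without the cells that held markers of other types 7 were called, against 45%. Leaving out the small, medium or large chip gave 6, 5 and 5, against 19.4%, 12.2% and 31.4%.

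The levels along the order in the large chip's low-spike cells, split into 5 bins of 12 or 13 cells, show where the difference lay. Calr had bin medians of 501, 459, 386, 313 and 218 ppm from the first bin to the last, lower in each successive bin. Hsp90b1 had 1249, 1320, 1286, 944 and 737 ppm, level over the first 3 bins and lower in the last 2, the bins in which Cyp2e1 had 5723 and 9245 ppm. Herpud1 followed the same course with 636, 555, 572, 378 and 363 ppm. Hspa5 was highest in the second bin, with 680, 1044, 733, 621 and 594 ppm. Pdia3 had 409, 395, 350, 349 and 259 ppm.

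Of the others, Xbp1 was also lower in the last 2 bins, with medians of 49.9, 48.8, 58.7, 37.8 and 40.8 ppm, and Atf4 was lower from the third bin on, with 59.9, 72.4, 34.6, 41.6 and 43.4 ppm. Dnajb9 was level, with 69.8, 67.7, 63.7, 60.8 and 68.2 ppm. Ddit3 had 6.52, 17.3, 9.99, 7.98 and 14.96 ppm, with no steady course. As the log2 ratio of medians, last bin over first, the difference was -1.19 for Calr, -0.81 for Herpud1, -0.76 for Hsp90b1, -0.66 for Pdia3, -0.48 for Pdia4, -0.46 for Atf4, -0.28 for Xbp1, -0.19 for Hspa5, -0.03 for Dnajb9 and 1.09 for Ddit3. By means the log2 ratio was negative for all 10, from -1.03 for Calr to -0.17 for Xbp1, with -0.83 for Atf4 and for Ddit3, whose sign turned, and -0.40 for Dnajb9. For Alb the log2 ratio of medians was -1.86, with medians of 5826 ppm in the last bin and 21177 in the first.

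**Figure D4:**
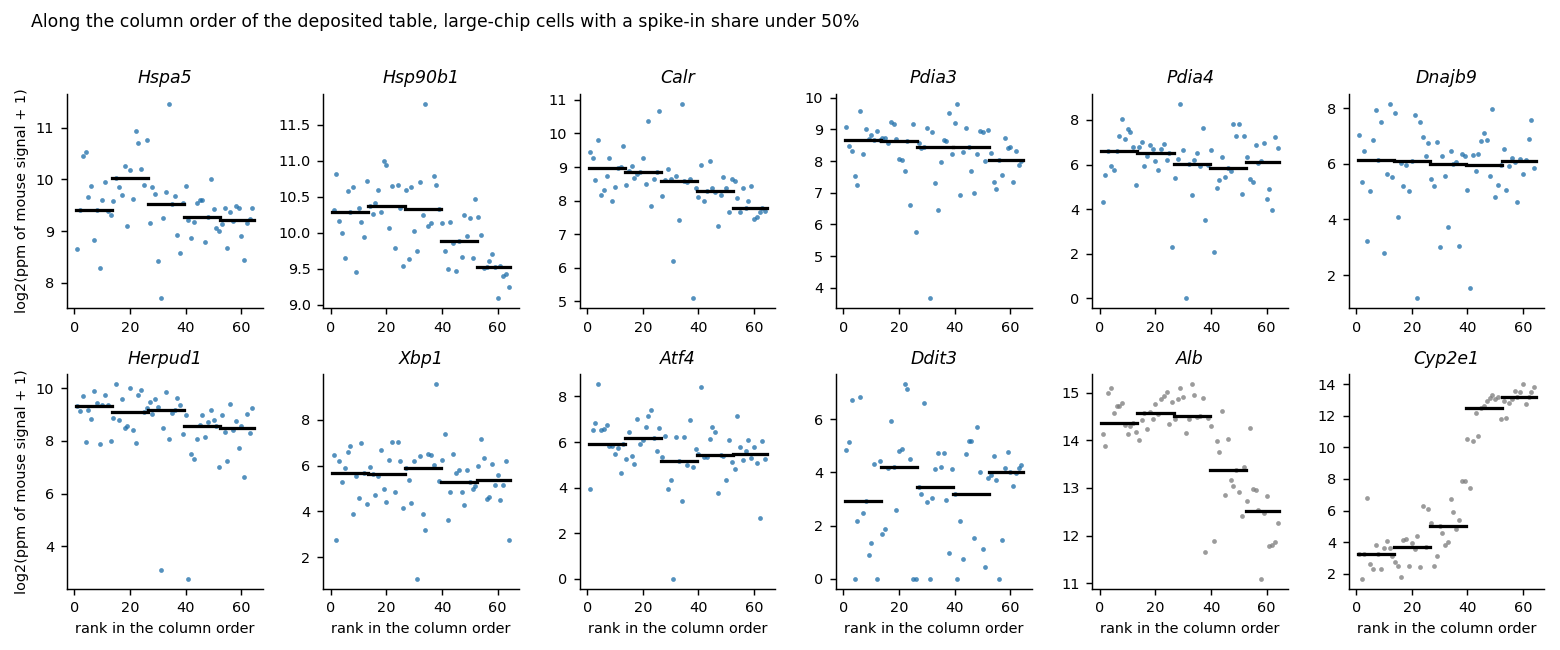
The 10 genes and, in grey, Alb and Cyp2e1 along the column order of the table in the 64 large-chip low-spike cells. The horizontal axis is the cell's rank in that order, the vertical axis log2 of the value in ppm plus 1 with its own scale in each panel, and black lines are the medians of 5 bins. Calr, Hsp90b1 and Herpud1 are lower in the last 2 bins, where Cyp2e1 is high and Alb low, and the medians of Dnajb9 stay level.

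Since Alb and the chaperones were both higher at the start, the relation with Alb was also computed at a fixed position in the order. In the rescaled low-spike large-chip cells the partial rho with Alb was 0.45 for Hspa5, 0.23 for Calr, 0.18 for Hsp90b1, 0.18 for Herpud1 and -0.30 for Pdia3. Of tested genes 0.946% had a partial rho as high as Hspa5 and 1.19% one as low as Pdia3. Hspa5 had -0.64 and -0.06 in the 12 small-chip and 7 medium-chip low-spike cells, so 0 members were called positive over the 3 chips under this treatment, against 2.95% of tested genes, and Pdia3 was called negative, against 17.7%.

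Markers of other cells moved with the order and with Alb on the large chip, and their part in these results was not tested. The summed level of the 10 sinusoidal endothelial markers, at least 3 of which were above 0 in 15 of 80 cells, had a rho of 0.25 with the order and -0.14 with Alb and ranged from 0 to 13547 ppm. The bile duct and plasma cell lists had the opposite signs. The summed level of 6 bile duct markers had a rho of -0.57 with the order and 0.47 with Alb, and ranged from 0 to 11554 ppm over the large-chip cells. At least 3 of the 6 were above 0 in 22 of 80 cells, through Krt7 (70 cells), Sox9 (58 cells) and Spp1 (29 cells), while Krt19, Epcam and Cldn7 were each above 0 in 1 cell. The summed B and plasma cell markers had a rho of 0.63 with Alb, and 5 of the 7 in the table were at 0 in every large-chip cell. That sum, 0 to 518 ppm, rested on Sdc1, above 0 in 69 cells, beside Igj in 3. Across chips, the Kupffer markers had a rho with Alb of -0.45, -0.30 and -0.13 in the small, medium and large chip. Their sum ranged up to 25754, 25301 and 131 ppm, and Clec4f, which defines these cells, was above 0 in 16, 7 and 0 cells.

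Among themselves the 10 genes had a higher median rho than all pairs of tested genes on each chip as deposited. The median rho over their 45 pairs was 0.40, 0.43 and 0.36 in the small, medium and large chip, where the median over all pairs of tested genes was 0.24, 0.30 and 0.20. All 45 pairs had a positive rho on the small chip, as did 40 on the medium chip and 45 on the large chip. The closest pair was Hspa5 with Hsp90b1 in the small (0.74) and the medium chip (0.77), and Hsp90b1 with Calr in the large chip (0.65). Rescaling took the members' medians to 0.191, 0.22 and 0.28, against 0.188, 0.25 and 0.18 for all pairs, so that the members were near all pairs on the small chip, below them on the medium chip and above them on the large chip. In low-spike cells, rescaled, the members had 0.42, 0.32 and 0.14, against 0.22, 0.21 and 0.04, over 12, 7 and 64 cells.

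Which genes were closest differed by chip and treatment. After rescaling, the closest pair was Herpud1 with Ddit3 on the small chip (0.54) and Pdia3 with Herpud1 on the medium chip (0.61). In the rescaled low-spike cells of the large chip the strongest pairs were Hsp90b1 with Calr (0.54), Hspa5 with Calr (0.45), Hspa5 with Ddit3 (0.39) and Hspa5 with Atf4 (0.38). The 10 pairs among the chaperones and isomerases had a median of 0.077, 0.23 and 0.37 in the rescaled small, medium and large chip, below the 0.191 of all 45 pairs on the small chip. Xbp1 was closest to Atf4 (0.36) and to Pdia3 (0.35). Dnajb9 had -0.17 with both Hsp90b1 and Atf4 in those large-chip cells, and in the medium chip as deposited its median rho with the other 9 was -0.05. On the small chip the same median was 0.51, level with that of Hspa5 as the highest of the 10, and 0.36 after rescaling, again the highest.

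**Figure D5:**
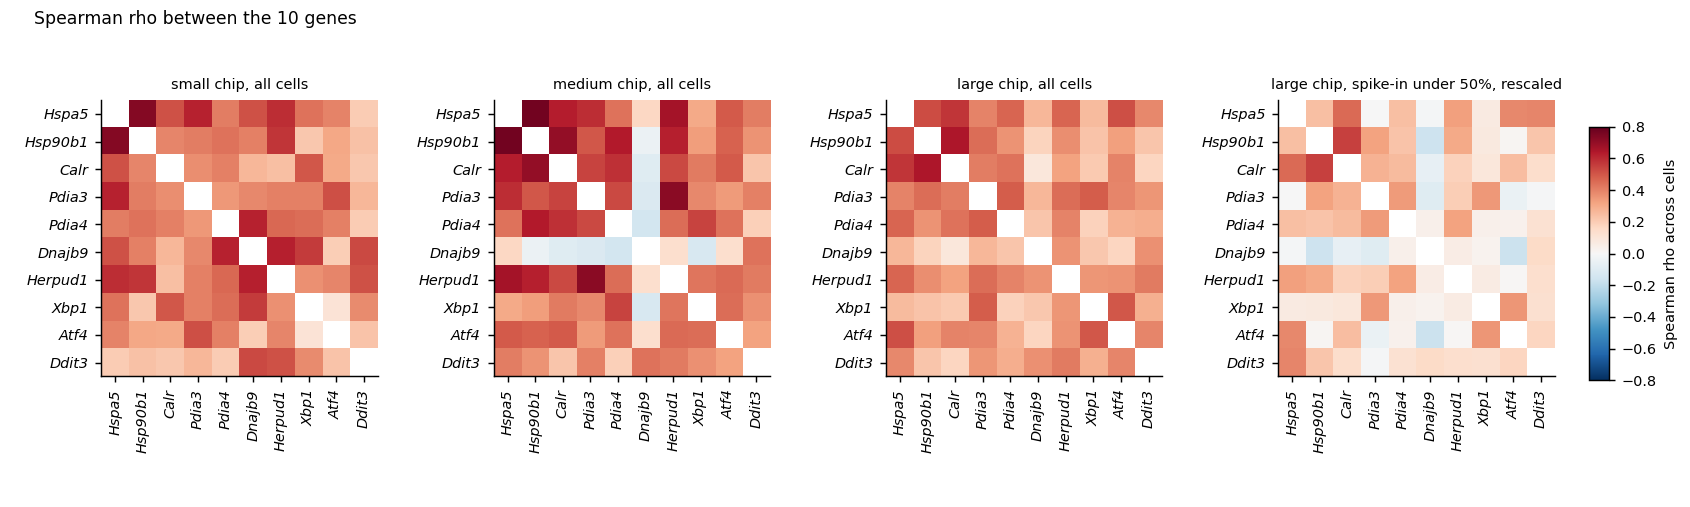
Spearman's rho between each pair of the 10 genes over the cells of 1 chip, as deposited for the 3 chips and, on the right, for the 64 low-spike large-chip cells after rescaling. Red is positive and blue negative. The pairs are mostly positive (medians 0.40, 0.43 and 0.36). The medium chip has Dnajb9 as a mostly pale or blue row, apart from its pair with Ddit3 (0.43). After rescaling the darkest cell is Hsp90b1 with Calr (0.54).

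Other genes of the same machinery, 55 in 5 lists, were called positive with Alb in most cases, the sensors least. All 55 had a row, and 47 were above 0 in enough cells to be tested. Of the other lumenal chaperones 11 of 12 were called positive, led by the prolyl isomerase Ppib (mean rho 0.59), the co-chaperone Dnajb11 (0.42) and the glucosyltransferase Uggt1 (0.40), which checks the folding of glycoproteins. Of the other oxidoreductases 9 of 10 were, led by Pdia6 (0.61), P4hb (0.57) and the sulfhydryl oxidase Qsox1 (0.52). Of the degradation factors 11 of 12 were, led by the lectin Os9 (0.46) and the channel components Derl1 and Derl2 (0.41 each). These shares are above the 48% of all tested genes. Of 6 sensors and their proteases 2 were called, Ern1 (0.33) and Eif2ak3 (0.25), with Atf6b at 0.17, and of 7 tested targets of the integrated stress response 4 were. None of the 47 was called negative as deposited.

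After each cell was rescaled fewer were called. Of the oxidoreductases 4 of 10 were called positive (P4hb, Pdia5, Pdia6 and Qsox1), beside 1 of 12 chaperones (Ppib), 1 of 12 degradation factors (Os9), 1 of 7 stress response targets (Atf5) and 0 of 6 sensors, against 3.79% of tested genes. In the low-spike cells of the 3 chips, rescaled, 6 of the 47 were called positive (Atf5, Derl3, Os9, P4hb, Qsox1 and Sil1), against 3.74% of tested genes, and 5 negative (Cebpg, Ero1l, Mbtps1, Mbtps2 and Slc3a2), against 14.4%. In the rescaled low-spike large-chip cells alone, rho with Alb was above that of the median tested gene for 11 of 12 chaperones, 8 of 10 oxidoreductases, 9 of 12 degradation factors, 4 of 7 stress response targets and 3 of 6 sensors. Towards the start of the column order 4 of 12 chaperones, 5 of 10 oxidoreductases, 4 of 12 degradation factors, 2 of 7 targets and 0 of 6 sensors were called as deposited, beside 15.4% of tested genes, and none towards the end.

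The stress response targets were mostly scarce. Of the 15, 8 were above 0 in too few cells to be tested, among them Psat1 and Phgdh, enzymes of serine synthesis, in 7 and 5 of 80 large-chip cells and in none of the others. Asns, the asparagine synthetase, was above 0 in 14 large-chip cells and the cystine transporter Slc7a11 in 1. Atf3 and Atf5, transcription factors of the same response, were above 0 in 74 and 71 large-chip cells and had a rho of 0.51 and 0.52 with the folding score, the mean z-score of Hspa5, Hsp90b1, Calr, Pdia3 and Pdia4 in that chip. Ppp1r15a, which restores translation after stress, had 0.43. The median tested gene had 0.26 with this score. In the other lists the closest to it were Manf (0.52), Ppib (0.51) and Uggt1 (0.49) among the chaperones, P4hb (0.67), Pdia6 (0.53) and Ero1lb (0.48) among the oxidoreductases, and Ubxn4 (0.52), Os9 (0.48) and Derl2 (0.39) among the degradation factors. Of the sensors Atf6, Mbtps1 and Eif2ak3 had 0.27, 0.25 and 0.23, near the 0.26 of the median tested gene. In rescaled low-spike cells the lists' median rho with the score was 0.23 for the chaperones, 0.32 for the oxidoreductases and 0.21 for the degradation factors. It was 0.21 for the tested stress response targets and 0.0019 for the sensors, against 0.07 for the median tested gene.

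Genes among the 10 most like the folding score over the 80 large-chip cells, among 4360 genes with a mean above that of the median tested gene and outside the lists, were Mdh1 (rho 0.70), Uqcrh (0.69), Gm2a (0.69), Rpl27 (0.67), Cdc42 (0.67), Rpl7 (0.67), Atp5g1 (0.66), Ndufb11 (0.66) and Asl (0.65). Alb had 0.58. In the rescaled low-spike cells the order was another: Ambp (0.70), Uqcrh (0.69), Serpind1 (0.68), Clu (0.67), Apom (0.67), Asl (0.67), Hp (0.66), Pnpla7 (0.66), Hc (0.66) and Kng1 (0.65). The median tested gene had 0.07 there and Alb 0.55. Ambp, Serpind1, Clu, Apom, Hp, Hc and Kng1 encode proteins secreted into plasma, whereas Uqcrh and Asl, the 2 genes on both lists, encode a subunit of the mitochondrial respiratory chain and an enzyme of the urea cycle.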

How the data were processed

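Single-cell RNA-seq values of 149 cells were analysed from 1 deposited table. Its values are a signal: per the labels and the file name, the authors' normalised expected counts, with no whole reads to recover, so depth is unknown. Per the submitters' processing notes, CASAVA 1.8.2, Bowtie 0.12.9, RSEM 1.2.3 and the mm10 build were used. The normalisation settings are not given in the sources used here. The 92 spike-in rows were kept out of the gene tests, and 5453 mouse genes were at 0 in all cells.

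A gene was tested if above 0 in 20% of cells or more, which left 8813. Spearman's rho was computed within each chip with Alb and with the rank in the column order, and chips were compared as log2 of (mean + 1), with a call at 2-fold. Each chip is 1 sample of 1 mouse, so there is no test of a difference. The call rule was tested on simulated data with 200 planted genes, in which each gene's values were first shuffled separately within each chip. The shuffling removed what genes share through detection in a cell, so the simulation gives no rate of calls for the real data. Alternatives were rescaling, Pearson's r, partial rho, low-spike cells, a pseudocount of 10, medians, no filter on low values, and each chip left out. Leaving out cells with markers of other types, partial rho on the order, and rescaled low-spike cells for the correlations were chosen after seeing the data. The members and lists were chosen with earlier results of these data known. Named genes are all members, in each list up to 3 with the largest mean rho with Alb in size and up to 3 with the largest rho with the folding score, and the 10 genes most like that score, of which 1 is not reported here. Gene positions and transcript lengths are from GENCODE M21 and promoters from RefSeq (GRCm38.p6). Python 3.11.15 with numpy 2.4.6, pandas 2.3.3 and scipy 1.17.1 was used.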

Additional observations from a re-analysis of the deposited data

How the results depend on the processing

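The count of members called positive with Alb (9) was 4 after rescaling each cell, 5 with the number of genes above 0 held constant, 3 in low-spike cells, 2 in those cells rescaled and 0 when the column order was also held constant. Leaving out a chip gave 8 to 10. Along the order (5), the count was 1 with the number of genes held constant and 3 in low-spike cells, and 5 to 6 without a chip. Past 2-fold in large over small (5), it was 2 in low-spike cells, 1 in those rescaled and 9 by medians. In large over medium (2), it was 1, 1 and 8. The median rho between members in the small, medium and large chip was 0.19, 0.22 and 0.28 after rescaling, 0.15, 0.095 and 0.30 with genes above 0 held constant, and 0.30, 0.26 and 0.13 in low-spike cells. By Pearson's r it was 0.39 in the medium and 0.49 in the large chip, in rescaled low-spike cells 0.32 and 0.14, and without cells holding other cells' markers 0.36 and 0.43.

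Signs of values past their call limit turned as follows. Mean rho of Pdia3 with Alb was -0.39 in low-spike cells, as deposited and rescaled. Atf4 had -0.011 after rescaling, -0.0064 in low-spike cells and -0.0072 in those rescaled. Ddit3 had -0.046 after rescaling, -0.026 with genes above 0 held constant, -0.066 in low-spike cells and -0.040 in those rescaled. With the order held constant in rescaled low-spike cells, Hspa5 had -0.085, Hsp90b1 -0.13, Pdia3 -0.56, Atf4 -0.10 and Ddit3 -0.14. The log2 ratio of Herpud1, large over medium, was -0.17 in low-spike cells and -0.032 in those rescaled. Of ratios under 2-fold, those that turned in low-spike cells were, in large over medium, Hspa5 (-0.51), Hsp90b1 (-0.35), Calr (-0.57), Xbp1 (-0.042), Ddit3 (-1.10), Dnajb9 (1.63) and Atf4 (0.38), and in large over small Hspa5 (-0.081) and Pdia4 (-0.75). The cause was not tested. No paired analysis was possible because no result comes from a test and the cell numbers pair nothing across chips. Depth is unknown, so a value of 0 gives no limit on a gene's level.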

Other observations

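Single cells differed in which of the 10 genes they held in excess. They were chosen after their values were seen. Large-chip cell 71 had the highest Hspa5, Hsp90b1 and Calr of that chip, at 2818, 3546 and 1887 ppm, while its Pdia3 (87.2 ppm) ranked 68 of 80, Xbp1 ranked 69 and Atf4 70. Its Alb, 31640 ppm, ranked 6, 35.99% of its signal was on spike-ins and 6626 genes were above 0. Large-chip cell 7 had the highest Xbp1 of its chip (753 ppm) and the third highest Pdia3 (737), with Calr at 33.1 ppm, rank 76, and Alb at 3202, rank 79, and it held at least 3 markers of another cell type. Medium-chip cell 15, with 4.17% of its signal on spike-ins, had the highest Herpud1 (1221 ppm) and Ddit3 (174 ppm) of the medium chip. Medium-chip cell 1 had that chip's highest Pdia3 (785 ppm) and Pdia4 (716 ppm) and 0 of Dnajb9 and Ddit3, with Alb at rank 29 of 30 and 52.1% of its signal on spike-ins, and it too held at least 3 markers of another cell type. Medium-chip cell 9 had its highest Dnajb9 (6008 ppm) and Atf4 (2177 ppm), with Hsp90b1 the lowest of the 30 cells at 3.9 ppm and 91.0% of its signal on spike-ins.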
